A study of Mus musculus with 6 samples.

Results

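Glycolytic enzyme genes were examined in donor hematopoietic cells recovered from irradiated mice shortly after bone marrow transplantation (BMT). The 10 genes were listed by name (Hk2, Hk3, Gpi1, Pfkl, Aldoa, Tpi1, Pgk1, Eno1, Pkm and Ldha), and all 10 were among the 24965 genes measured. Their transcripts were compared between donors lacking Hemgn and wild type (WT) donors. None of the 10 passed the test across all genes, and the ratios of Hemgn-/- to WT means lay between 0.795 and 1.15. Gpi1, Hk3 and Hk2 lay lower in all 3 Hemgn-/- libraries than in all 3 WT libraries. Among all genes tested, the groups did not overlap in 27.4%, 8.18% lower and 19.2% higher. The groups of the other 7 listed genes overlapped, with slightly higher means in Hemgn-/- libraries for Pfkl and Tpi1.

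The donors were Hemgn-/- mice, made with zinc finger nucleases on a C57BL/6 (CD45.2) background, and their WT littermates, 8 to 10 weeks old. Bone marrow cells of either genotype were given to CD45.1+ recipients that had received 9 Gy in a split dose (4.5 Gy each), and donor hematopoietic stem and progenitor cells (HSPCs) were sorted 6 h post-BMT, so both groups had been through transplantation and no untransplanted cells are part of the comparison. There were 3 WT and 3 Hemgn-/- libraries, which the study calls biological replicates without saying whether recipients were pooled. The sample labels describe the sorted cells as CD45.2+Lin-Sca-1+, whereas the series description adds c-Kit+, and they disagree as well about how the cells were injected and how the libraries were made.

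Glycolysis splits glucose into pyruvate in the cytosol and yields ATP without oxygen. In its first stage hexokinase, glucose-phosphate isomerase, phosphofructokinase and aldolase spend ATP to make triose phosphates, and in its second stage triose-phosphate isomerase, glyceraldehyde-phosphate dehydrogenase, phosphoglycerate kinase, phosphoglycerate mutase, enolase and pyruvate kinase recover it. Lactate dehydrogenase then turns pyruvate into lactate and restores NAD+. Quiescent hematopoietic stem cells are known to rely on glycolysis in their low-oxygen niche, and neutrophils are known to draw most of their ATP from it.

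FPKM stands for fragments per kilobase of exon and 1000000 fragments of the library. Sequencing depth, worked out from the smallest FPKM increments, was 23668014 to 28897345 fragments a library. Hemgn itself averaged 4.43 ± 1.36 FPKM in WT and 1.09 ± 0.449 FPKM in Hemgn-/- libraries (SD, n = 3), and the groups did not overlap, with a log2 fold change of -1.37 (limma, Benjamini-Hochberg adjusted p = 0.0114). Leaving out WT replicate 3 gave -1.32 and an adjusted p of 0.0503 by the same limma and Benjamini-Hochberg procedure. Markers of the labelled cells were low in both groups. Kit, the receptor that the series description adds to the sort, lay between 5.50 and 7.24 FPKM in the 6 libraries. Ly6a, the gene of Sca-1, lay between 8.27 and 17.3 FPKM. Of 9 HSPC markers tested, 5 had a log2 fold change above 0 and 4, Kit among them, below 0. Cd34 was called higher, with means of 8.08 FPKM in WT and 11.4 FPKM in Hemgn-/- libraries (limma, Benjamini-Hochberg adjusted p = 0.0427), and 0 were called lower. The 10 HSPC markers together summed to 35.9 to 41.8 FPKM in WT and 43.2 to 51.7 FPKM in Hemgn-/- libraries. In contrast, 12 granulocyte markers summed to 75800 to 81900 FPKM in WT and 50290 to 55560 FPKM in Hemgn-/- libraries, with 5 called lower and 1 higher. The 10 erythroid markers summed to 466.6 to 555.8 FPKM in WT and 39.1 to 53.9 FPKM in Hemgn-/- libraries, and 5 of 9 tested were called lower. The part of these cell types in the values of the glycolytic genes was not tested, and in bulk RNA fewer cells of a type and less RNA per cell cannot be told apart.

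The 10 transcripts spanned a wide range of levels, all above 9 FPKM in every library. FPKM is a value per length, so levels can be set side by side. Pkm, the pyruvate kinase of the last ATP-yielding step, led with a mean of 514.8 FPKM over the 6 libraries and ranked 69 among all genes. It was followed by Ldha (246.0 FPKM), Hk3 (215.9 FPKM), Gpi1 (164.9 FPKM), Eno1 (146.9 FPKM), Pgk1 (124.2 FPKM) and Aldoa (78.2 FPKM). Tpi1 (24.4 FPKM), Pfkl (18.2 FPKM) and Hk2 (10.8 FPKM) came last. In this order the ranges over the 6 libraries overlapped between Ldha and Hk3, Hk3 and Gpi1, Gpi1 and Eno1, Eno1 and Pgk1, and Tpi1 and Pfkl. Within each of the 6 libraries, however, Ldha lay above Hk3 and Hk3 above Gpi1. The order of Gpi1 and Eno1, of Eno1 and Pgk1, and of Tpi1 and Pfkl changed between libraries. Pkm stood apart from Ldha, Pgk1 from Aldoa, Aldoa from Tpi1, and Pfkl from Hk2. The length used matters for the middle of the order, since the exons of Eno1 cover 5379 bases and its longest coding transcript 2027. Per kilobase of the longest coding transcript, an ordering chosen after seeing the data, Eno1 moved from rank 5 to rank 3 and Hk3 from rank 3 to rank 5, and the other 8 kept their ranks.

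**Figure D1:**
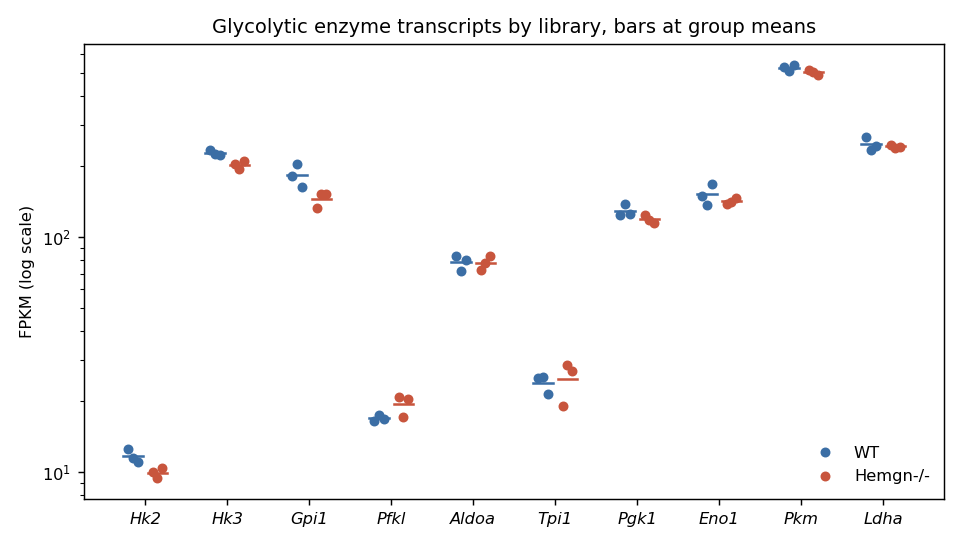
FPKM of the 10 glycolytic enzyme genes (log axis, genes in pathway order) in the 3 WT (blue) and 3 Hemgn-/- (red) libraries, 1 point a library and bars at the group means. Levels run from 9.40 FPKM for Hk2 to 542.7 FPKM for Pkm, and only Hk2, Hk3 and Gpi1 have groups that do not overlap.

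Hexokinase commits glucose to the cell by phosphorylating it, and Hk2 encodes the inducible, mitochondria-bound form while Hk3 encodes the form typical of myeloid cells. Hk2 (chr6:82725025-82774454, minus strand, GRCm38) was at 12.5, 11.5 and 11.1 FPKM in WT replicates 1 to 3 and at 10.0, 9.40 and 10.3 FPKM in Hemgn-/- replicates 1 to 3. Every Hemgn-/- value was below every WT value, but the gap between the groups was small, and the log2 fold change was -0.21 with a standard error of 0.097 (limma, Benjamini-Hochberg adjusted p = 0.251). Hk3 (chr13:55005985-55021385, minus strand) was present at far higher levels, with 235.1, 226.4 and 224.4 FPKM in WT and 204.8, 194.5 and 210.3 FPKM in Hemgn-/- libraries. The groups again did not overlap, and the replicates lay close together (coefficient of variation 2.49% in WT and 3.94% in Hemgn-/-). The difference for Hk3 was -0.17 on the log2 scale with a standard error of 0.060 (limma, Benjamini-Hochberg adjusted p = 0.149), a ratio of means of 0.889. This p became 0.0356 when libraries were scaled by the median of gene ratios.

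Gpi1, glucose-6-phosphate isomerase, turns glucose 6-phosphate into fructose 6-phosphate. Gpi1 (chr7:34201330-34230336, minus strand) was at 182.4, 204.8 and 163.8 FPKM in WT and at 132.4, 152.8 and 152.9 FPKM in Hemgn-/- libraries. Its highest Hemgn-/- value lay under its lowest WT value, and its ratio of means of 0.795 was the furthest from 1 among the 10 genes. The log2 fold change was -0.33 with a standard error of 0.096 and a 95% interval of -0.55 to -0.11 (limma, Benjamini-Hochberg adjusted p = 0.0903). The adjusted p was 0.0358 with median-ratio scaling and 0.0363 with limma's voom on recovered fragments (Benjamini-Hochberg in both), and it was over 0.05 in the other 14 alternatives. Gpi1 shares 11.5% of its exon bases with Gm26762, a lincRNA on the opposite strand that was between 1.70 and 3.61 FPKM.

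Gpi1 also has a processed pseudogene, Gm1840 (chr8:5639580-5641011), an intronless copy of its messenger RNA. The copy rose in Hemgn-/- libraries, whereas the parent's values were lower without passing the test. Gm1840 was at 3.22, 3.00 and 2.39 FPKM in WT and rose to 6.97, 7.52 and 7.66 FPKM in Hemgn-/- libraries, a log2 fold change of 1.12 with a standard error of 0.13 (limma, Benjamini-Hochberg adjusted p = 0.0021). All 15 alternatives that fitted Gm1840 kept its call. The aligned stretch of 1043 bases differs at 14 positions, and no window of 150 bases, the read length, is shared exactly with another annotated gene, so whole reads can in principle be told apart. The pair is shown because parent and copy differed in opposite directions while their letters are nearly the same. The stretch below covers bases 637 to 696 of the Gpi1 coding sequence in the GENCODE M21 transcripts of GRCm38, read along the coding strand, and capitals mark the bases that differ.
Gpi1: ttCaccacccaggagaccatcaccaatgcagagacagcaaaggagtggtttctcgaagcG
Gm1840: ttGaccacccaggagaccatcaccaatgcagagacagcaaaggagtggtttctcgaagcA

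The fragments of Gm1840 were few beside those of its parent. In fragments per 1000000, Gpi1 had 1185 ± 132 in WT and 942.3 ± 76.0 in Hemgn-/- libraries, and Gm1840 had 4.11 ± 0.611 and 10.6 ± 0.521 (SD, n = 3). The copy thus held 0.32% to 1.15% of the sum, and the sum of both was 1189 ± 133 in WT and 952.8 ± 76.5 in Hemgn-/- libraries. How reads were divided between Gpi1 and its copy was not tested.

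Pfkl is the liver-type phosphofructokinase subunit, which carries out the main regulated step of the pathway. Pfkl (chr10:77986947-78010083, minus strand) was at 16.4, 17.5 and 16.8 FPKM in WT and at 20.8, 17.1 and 20.4 FPKM in Hemgn-/- libraries. Hemgn-/- replicates 1 and 3 lay above all WT values and replicate 2 lay within them, so the groups overlapped, and the log2 fold change was 0.18 with a standard error of 0.10 (limma, Benjamini-Hochberg adjusted p = 0.341). Aldoa is the aldolase of most tissues, which cleaves fructose bisphosphate into triose phosphates. The Aldoa gene that carried the signal (ENSMUSG00000030695, chr7:126795234-126800751, minus strand) was at 83.5, 72.1 and 80.1 FPKM in WT and at 72.5, 77.7 and 83.2 FPKM in Hemgn-/- libraries. The groups overlapped almost fully, with a log2 fold change of -0.01 and a standard error of 0.084 (limma, Benjamini-Hochberg adjusted p = 0.946). A second Ensembl gene with the same symbol, ENSMUSG00000114515, is listed at 0 in 5 libraries and at 0.048 FPKM in 1.

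Tpi1, triose-phosphate isomerase, interconverts the triose phosphates that aldolase makes. Tpi1 (chr6:124810586-124814296, minus strand) was at 25.1, 25.3 and 21.5 FPKM in WT and at 19.0, 28.6 and 27.0 FPKM in Hemgn-/- libraries. Hemgn-/- replicate 1 was the lowest and replicate 2 the highest of all 6, and the coefficient of variation in Hemgn-/- libraries (20.6%) was the largest among the 10 genes in either group. The log2 fold change was 0.03 with a standard error of 0.15 (limma, Benjamini-Hochberg adjusted p = 0.928), and its sign turned with median-ratio scaling (-0.07) and quantile normalization (-0.03). Without Hemgn-/- replicate 1 it was 0.21 and without Hemgn-/- replicate 2 it was -0.08.

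The groups of the members of the later steps overlapped as well. Pgk1, phosphoglycerate kinase, makes the first ATP of this stage and is X-linked (chrX:106187100-106203699, plus strand). Pgk1 was at 123.8, 137.8 and 125.3 FPKM in WT and at 124.4, 118.8 and 114.9 FPKM in Hemgn-/- libraries. The groups overlapped through Hemgn-/- replicate 1, and the log2 fold change was -0.11 with a standard error of 0.070 (limma, Benjamini-Hochberg adjusted p = 0.421). Eno1, the enolase of most tissues, dehydrates 2-phosphoglycerate to phosphoenolpyruvate (chr4:150236721-150248879, plus strand). Eno1 was at 150.3, 136.5 and 169.0 FPKM in WT and at 138.0, 140.9 and 146.8 FPKM in Hemgn-/- libraries. All Hemgn-/- values lay inside the WT range, and the log2 fold change was -0.09 with a standard error of 0.085 (limma, Benjamini-Hochberg adjusted p = 0.571).

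Pkm gives rise to the M1 and M2 forms of pyruvate kinase by alternative splicing, which a value per gene cannot separate (chr9:59656368-59679375, plus strand). Pkm was at 529.1, 508.8 and 542.7 FPKM in WT and at 514.6, 504.9 and 488.7 FPKM in Hemgn-/- libraries. The groups overlapped through Hemgn-/- replicate 1, and the log2 fold change was -0.07 with a standard error of 0.055 (limma, Benjamini-Hochberg adjusted p = 0.533). Gm49759, an unverified transcript on the same strand, shares 15.3% of the exon bases of Pkm and lay between 6.92 and 9.89 FPKM. Ldha, the lactate dehydrogenase subunit that favours lactate production, lies on chromosome 7 (chr7:46841475-46855627, plus strand). Ldha was at 266.7, 234.0 and 244.8 FPKM in WT and at 246.5, 240.6 and 243.2 FPKM in Hemgn-/- libraries. All Hemgn-/- values lay inside the WT range, and they spread less than the WT values. The log2 fold change of Ldha was -0.03 with a standard error of 0.066 (limma, Benjamini-Hochberg adjusted p = 0.845).

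Over the whole group, 0 of 10 genes had an adjusted p under 0.05 in limma with Benjamini-Hochberg adjustment, where 6.46% of the 13739 genes tested did. No member passed p under 0.05 together with a 1.5-fold difference either, the thresholds the study names, which 6.83% of all genes passed, 4.1% higher and 2.74% lower. At an unadjusted p under 0.05, 2 of 10 members were lower (Gpi1 and Hk3) and none was higher, against 21.4% of all genes, 6.46% lower and 15% higher. The groups did not overlap in 3 of 10 members, all lower in Hemgn-/- libraries, against 27.4% of all genes, 8.18% lower and 19.2% higher. With only 10 genes these shares are a description of the group. On the FPKM values as deposited, no member's 95% interval reaches a fall of more than 1.46-fold or a rise of more than 1.33-fold. These bounds hold for that fit only. Over the alternatives the log2 fold change of Gpi1 ran from -0.43 to -0.24.

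The direction within the group depended on how libraries were scaled. On the FPKM values as deposited, 8 of 10 members had a log2 fold change below 0, against 37% of all genes, but the count was 9 with median-ratio scaling or quantile normalization and 5 when every library was brought to the same FPKM total, where Aldoa, Pkm and Ldha turned above 0. Over all genes the median log2 fold change was itself off 0, at 0.09 as deposited, 0.01 with median-ratio scaling and 0.16 at the same FPKM total. The median of the members was -0.08, -0.18 and 0.01 under these scalings, and 9 of 10 members, all but Pfkl, were below the median of all genes under each. Scaling a library moves nearly all of its genes alike, so a position relative to that median could hardly change between scalings. It could change with libraries left out, where 8 of 10 members were below the median without Hemgn-/- replicate 1 and 9 of 10 without any other library. The members' summed level was 1575 to 1625 FPKM in WT and 1483 to 1498 FPKM in Hemgn-/- libraries. The FPKM of all genes together was lower as well, at 369534 to 374913 in WT and 343858 to 358187 in Hemgn-/- libraries. The granulocyte markers also summed lower in the same libraries, with 5 of 12 called lower and 1 higher. The part of either in the members' summed level was not tested.

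**Figure D2:**
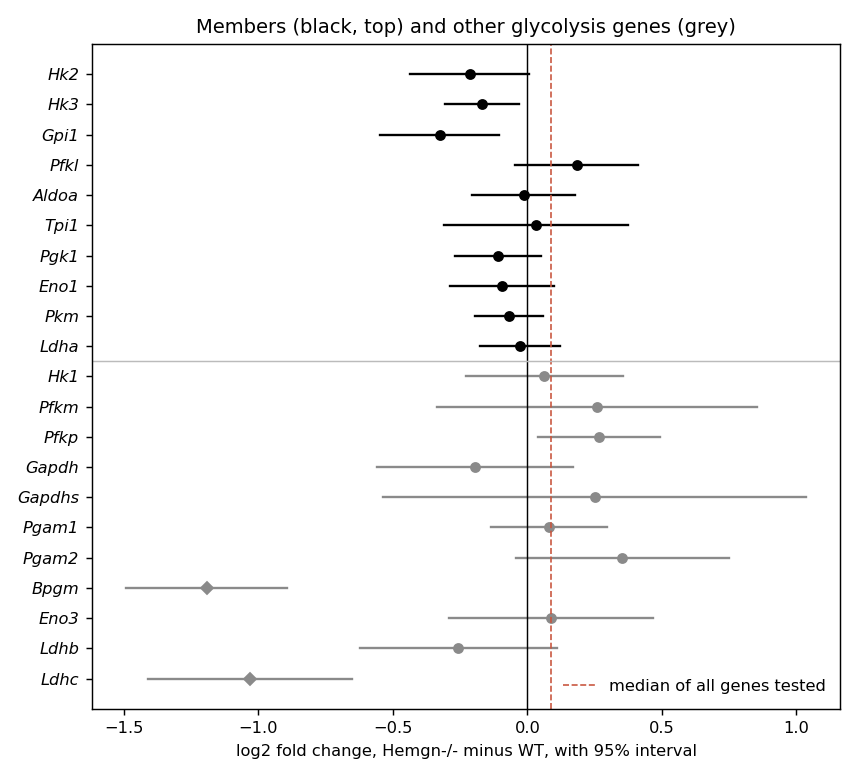
Log2 fold changes (Hemgn-/- minus WT, log2(FPKM + 1) scale) with 95% intervals from limma for the 10 members (black) and other glycolysis genes tested (grey), with diamonds for an adjusted p under 0.05. The solid line is at 0 and the dashed line at the median of all genes tested (0.09); the intervals of Hk3 and Gpi1 lie below 0 among the members, and only Bpgm and Ldhc, both non-members, carry diamonds.

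The steps without a member were read through their most abundant isozymes. Gapdh, glyceraldehyde-3-phosphate dehydrogenase, was at only 12.2, 14.4 and 9.69 FPKM in WT and at 11.1, 11.5 and 8.55 FPKM in Hemgn-/- libraries. That level is below those of Eno1 and Pgk1, and it counts only a small part of the Gapdh-like fragments. Of 266 annotated copies of its coding sequence, 93 that were in the table and entered the sum held 92.2% to 95.1% of the fragments of Gapdh and copies together. Of the 150-base windows of its transcript 74.0% occur unchanged in other genes. The log2 fold change was -0.20 for Gapdh alone and 0.21 for the sum (limma, Benjamini-Hochberg adjusted p = 0.529 and 0.528), so its direction depends on where these fragments are counted. The copy with the most fragments, Gm13394 (chr2:28933610-28934609), was at 263.1 to 413.2 FPKM in WT and 397.0 to 594.0 FPKM in Hemgn-/- libraries (limma, Benjamini-Hochberg adjusted p = 0.131). Along 999 aligned bases it differs from Gapdh at 1, and the stretch around that base (coding bases 394 to 453) is shown because it holds the only difference within that alignment, which covers 92.8% of the coding sequence, with the base in capitals.
Gapdh: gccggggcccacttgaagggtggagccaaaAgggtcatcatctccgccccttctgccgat
Gm13394: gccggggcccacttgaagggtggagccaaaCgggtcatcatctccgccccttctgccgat

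Another Gapdh copy, Gm9522, fell from 4.59 ± 0.641 to 1.23 ± 0.352 FPKM (SD, n = 3), a log2 fold change of -1.33 (limma, Benjamini-Hochberg adjusted p = 0.0033). Pgam1, phosphoglycerate mutase, was at 103.2, 105.4 and 86.7 FPKM in WT and at 95.1, 107.8 and 109.0 FPKM in Hemgn-/- libraries. Its groups overlapped, and its log2 fold change of 0.08 (limma, Benjamini-Hochberg adjusted p = 0.665) turned to -0.02 with median-ratio scaling. Its copy Pgam1-ps2 (chr7:27469771-27470535) matches the coding sequence at every one of 762 aligned bases and was called higher, with 4.41 ± 0.748 FPKM in WT against 6.94 ± 0.470 FPKM in Hemgn-/- libraries (limma, Benjamini-Hochberg adjusted p = 0.0429). This call held in 4 of 15 alternatives. Its log2 fold change was 0.56, also with the replicate block, and 0.47 to 0.66 with libraries left out. The adjusted p went over 0.05 in 11 alternatives and reached 0.201 (limma with Benjamini-Hochberg, here and in the next sentence). Among the 11 were the replicate block (0.0741) and the fits without WT replicate 1 (0.109), WT replicate 3 (0.119), Hemgn-/- replicate 1 (0.117), Hemgn-/- replicate 2 (0.104) or Hemgn-/- replicate 3 (0.113).

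Copies held a far smaller share of the fragments for the members than for Gapdh. How reads that match several places were counted is not given in the sources used here, and the effect of that counting on the values of Pgk1, Eno1 and the other genes with shared sequence was not tested. No annotated copy was found for Hk2, Hk3 or Pfkl, and none of the 9 copies of Aldoa was in the table. Pgk1 was the member with the most shared sequence: 66.1% of its 150-base windows occur unchanged in 2 other genes, and Pgk1-rs7 (chr12:10898986-10900240) matches it at all 1250 aligned bases. Even so, the Pgk1 copies in the table held 0.29% to 0.52% of the summed fragments, and Pgk1-rs7 was at 0.604 to 0.996 FPKM in WT and 0.855 to 1.16 FPKM in Hemgn-/- libraries (limma, Benjamini-Hochberg adjusted p = 0.640). For Eno1, 49.0% of windows are shared and its copies held 2.36% to 2.90% of the sum. Most of that came from Gm4735 (chr2:80837141-80838442), which matches Eno1b, itself a copy, most closely. Gm4735 was at 17.8, 13.1 and 16.3 FPKM in WT and at 15.2, 14.0 and 16.5 FPKM in Hemgn-/- libraries, with overlapping groups and a log2 fold change of -0.04 (limma, Benjamini-Hochberg adjusted p = 0.894). The Pkm copy Gm6560 (chr5:22724578-22726168) was at 3.88 to 5.18 FPKM in WT and 4.49 to 5.91 FPKM in Hemgn-/- libraries (limma, Benjamini-Hochberg adjusted p = 0.648), and held 0.23% to 0.36%. The copies of Ldha and of Tpi1 held at most 0.33% and 0.30%. With each member replaced by the sum with its copies, 0 of 10 members were called and 8 of 10 stayed below 0.

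**Figure D3:**
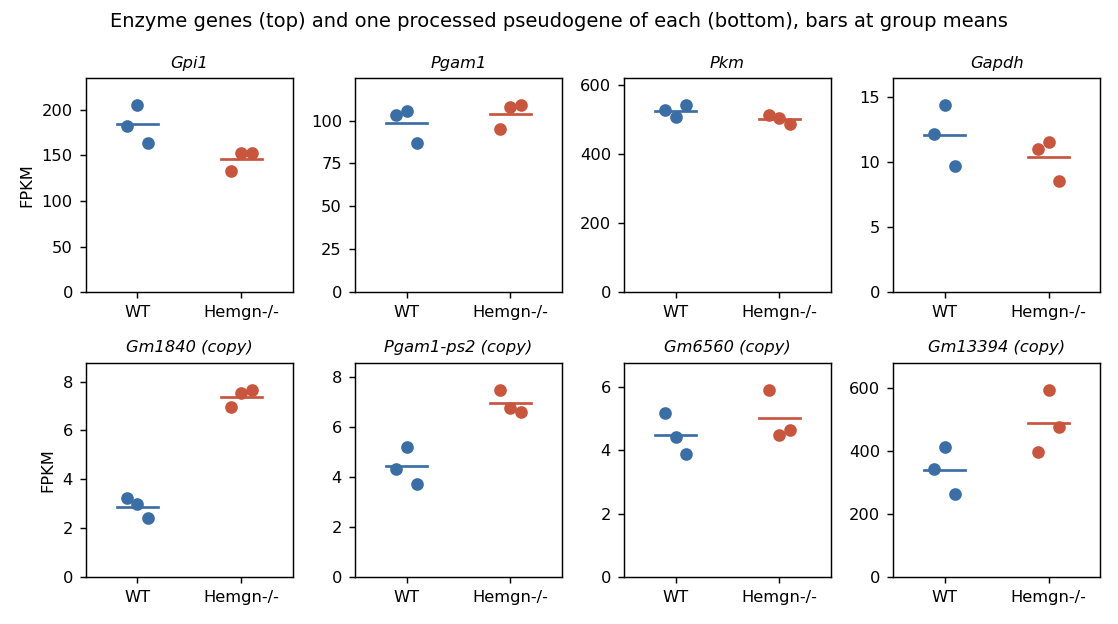
FPKM of Gpi1, Pgam1, Pkm and Gapdh (top row) and of 1 processed pseudogene of each (bottom row), 1 point a library, WT in blue and Hemgn-/- in red, with bars at the group means and each axis starting at 0. Gm1840 and Pgam1-ps2 lie higher in all Hemgn-/- libraries, Gpi1 lies lower in all of them, and the groups of Pgam1, Pkm, Gm6560, Gapdh and Gm13394 overlap.

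Most steps of glycolysis can be carried out by several isozymes, and 1 of them supplied most of the transcript at each step shown here. Hk3 made up 88.4% ± 1.00 of the summed hexokinase FPKM in WT and 87.5% ± 0.541 in Hemgn-/- libraries (SD, n = 3 here and below). Hk1, the hexokinase of most tissues, and Hk2 made up 7.09% and 4.51% of it in WT and 8.24% and 4.27% in Hemgn-/- libraries. The groups did not overlap in the share of Hk1, higher in Hemgn-/- libraries, or of Hk2, lower in them. They overlapped in the share of Hk3, and only the leading isozyme of a step entered the adjustment given below. Hk1 itself was at 21.2, 15.4 and 18.6 FPKM in WT and at 18.4, 17.8 and 21.3 FPKM in Hemgn-/- libraries. Pfkl shared its step most evenly, with 64.6% ± 0.556 of phosphofructokinase in WT and 62.8% ± 2.32 in Hemgn-/- libraries. The platelet-type subunit Pfkp supplied most of the rest, at 32.6% in WT and 34.0% in Hemgn-/- libraries.

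At the other steps the leading isozyme was close to alone. Eno1 made up 97.7% ± 0.358 of enolase in WT and 97.3% ± 0.683 in Hemgn-/- libraries, and Pgam1 90.7% ± 1.68 and 88.9% ± 0.284 of phosphoglycerate mutase. Ldha made up 96.7%, 96.1% and 95.8% of lactate dehydrogenase in the WT libraries and 97.2%, 98.0% and 97.4% in the Hemgn-/- libraries, without overlap. Pklr, the liver and red cell pyruvate kinase, made up at most 0.035% beside Pkm and is listed at 0 in all Hemgn-/- libraries. A two-sided exact permutation test over the 6 libraries gave p = 0.1 for the shares of Ldha and Pkm, the smallest p this design allows, and 0.3 to 0.4 for Hk3, Pfkl, Pgam1 and Eno1. Over the 7 shares of leading isozymes, the exact p-values adjusted by Benjamini-Hochberg were 0.233 and 0.4, so the design cannot show a shift of isozymes at 0.05.

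**Figure D4:**
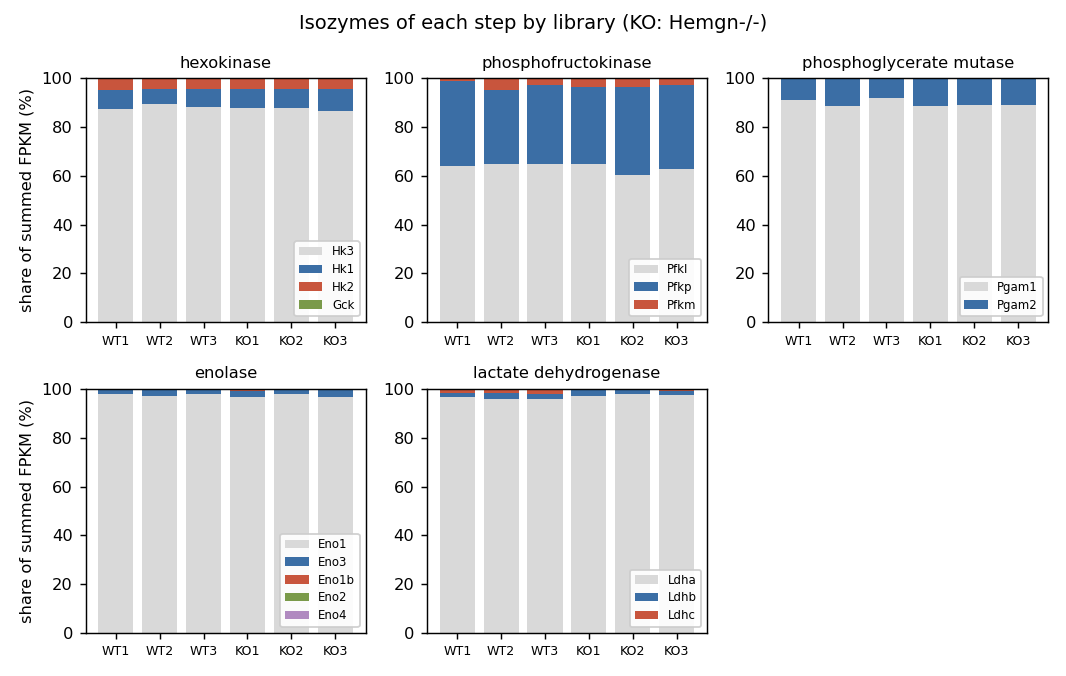
Share of the summed FPKM of a step (percent, axis from 0 to 100) held by each isozyme gene in each library, with WT libraries on the left and Hemgn-/- libraries (KO) on the right of each panel. Hk3, Pfkl, Pgam1, Eno1 and Ldha (light grey) lead in every library, with Pfkl between 60.4% and 65.1% and Hk3 between 86.8% and 89.4%.

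Among all glycolysis isozymes, 2 genes outside the 10 did change. The list held 30 genes, 29 of them in the table (Hkdc1 was not) and 22 tested, of which 2 were called lower and 0 higher, beside 2.09% lower and 4.37% higher among all genes. The median log2 fold change over the 22 was -0.05, beside 0.09 over all genes. Bpgm, bisphosphoglycerate mutase, makes the 2,3-bisphosphoglycerate that tunes oxygen release from hemoglobin and is known from red cells. Bpgm was at 16.6, 17.7 and 15.8 FPKM in WT and fell to 5.48, 7.00 and 7.96 FPKM in Hemgn-/- libraries, a log2 fold change of -1.19 with a standard error of 0.13 (limma, Benjamini-Hochberg adjusted p = 0.0019). Of the 9 erythroid markers tested, 5 were called lower in the same libraries, Hba-a1, Hbb-bs and Alas2 among them. The other 4 were not called, and 1 of these, Epor, had a log2 fold change above 0. The part of the erythroid markers in the value of Bpgm was not tested.

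Ldhc, a lactate dehydrogenase subunit known from testis and the neighbour of Ldha on chromosome 7, was at 4.41, 4.25 and 4.64 FPKM in WT. It fell to 1.41, 1.35 and 2.32 FPKM in Hemgn-/- libraries, a log2 fold change of -1.03 with a standard error of 0.17 (limma, Benjamini-Hochberg adjusted p = 0.0092). Both calls held in all 16 alternatives. Ldhc held 1.72% of the lactate dehydrogenase FPKM in WT and 0.679% in Hemgn-/- libraries, so Ldha was still by far the main source of this enzyme's transcript. Pfkp, with 8.54 ± 0.422 FPKM in WT against 10.5 ± 0.636 FPKM in Hemgn-/- libraries, did not overlap between the groups and was not called (limma, Benjamini-Hochberg adjusted p = 0.166).

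The pathways that feed glycolysis or branch from it were followed through 8 lists of 73 genes, of which 61 were tested. Of these, 3 were called higher (Slc2a6, Phgdh and Shmt2) and 2 lower (Adpgk and Gys1). These are 4.92% and 3.28% of the 61, near the 4.37% higher and 2.09% lower among all genes, so the counts do not set these pathways apart. Glucose and lactate transport (7 tested) had 1 gene called higher and a median log2 fold change of 0.07. Slc2a6, a member of the glucose transporter family, rose from 23.1 ± 0.161 to 35.5 ± 4.23 FPKM (log2 fold change 0.59, limma with Benjamini-Hochberg adjusted p = 0.0102). The main glucose transporters did not pass: Slc2a1 was at 34.9 ± 3.74 and 42.9 ± 1.57 FPKM and Slc2a3 at 162.4 ± 10.4 and 170.7 ± 6.97 FPKM (limma, Benjamini-Hochberg adjusted p = 0.106 and 0.594). Adpgk, a glucokinase that uses ADP and so bypasses the hexokinases, was tested with the enzymes that set fructose 2,6-bisphosphate (4 tested, median 0.10). Adpgk fell from 287.2 ± 5.58 to 224.7 ± 7.67 FPKM (log2 fold change -0.35, limma with Benjamini-Hochberg adjusted p = 0.0099).

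The serine branch, which draws 3-phosphoglycerate out of glycolysis, had 2 of 5 genes called higher and a median of 0.39. Phgdh, its first enzyme, rose from 72.8 ± 2.96 to 95.6 ± 5.90 FPKM, and Shmt2, the mitochondrial serine hydroxymethyltransferase, rose from 22.3 ± 2.71 to 32.2 ± 2.25 FPKM (limma, Benjamini-Hochberg adjusted p = 0.0189 and 0.0241). Psat1, Psph and Shmt1 did not pass. In glycogen metabolism (9 tested, median -0.01), Gys1, the glycogen synthase of most tissues, fell from 27.8 ± 0.788 to 19.3 ± 1.44 FPKM (limma, Benjamini-Hochberg adjusted p = 0.0117). No gene was called in pyruvate entry into mitochondria (12 tested, median 0.05), the pentose phosphate pathway (7 tested, median -0.08), gluconeogenesis (3 tested, median 0.03) or the hypoxia axis (14 tested, median 0.10), which holds Hif1a, the known inducer of glycolytic genes.

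Several of these calls lay near the threshold, and leaving out a library ended some of them while the log2 fold changes stayed close: -0.37 to -0.32 for Adpgk, -0.54 to -0.45 for Gys1, 0.35 to 0.44 for Phgdh and 0.46 to 0.61 for Shmt2. Adjusted p-values by limma with Benjamini-Hochberg went over 0.05 for Adpgk without WT replicate 1 (0.0509) and for Gys1 without Hemgn-/- replicate 3 (0.0588). For Phgdh they did so without WT replicate 1 (0.0620), Hemgn-/- replicate 2 (0.0644) or Hemgn-/- replicate 3 (0.0944), and with median-ratio scaling (0.0601). For Shmt2 they did so in 7 of 16 alternatives. Among these were the fits without WT replicate 1 (0.0851), WT replicate 3 (0.0840), Hemgn-/- replicate 2 (0.0733) or Hemgn-/- replicate 3 (0.107), and median-ratio scaling (0.0591). The call of Slc2a6 was kept with each library left out. However, eBayes without a trend kept none of these calls, Slc2a6 included. Over all alternatives the highest adjusted p was 0.104 for Adpgk and 0.0546 for Slc2a6 (limma, Benjamini-Hochberg).

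**Figure D5:**
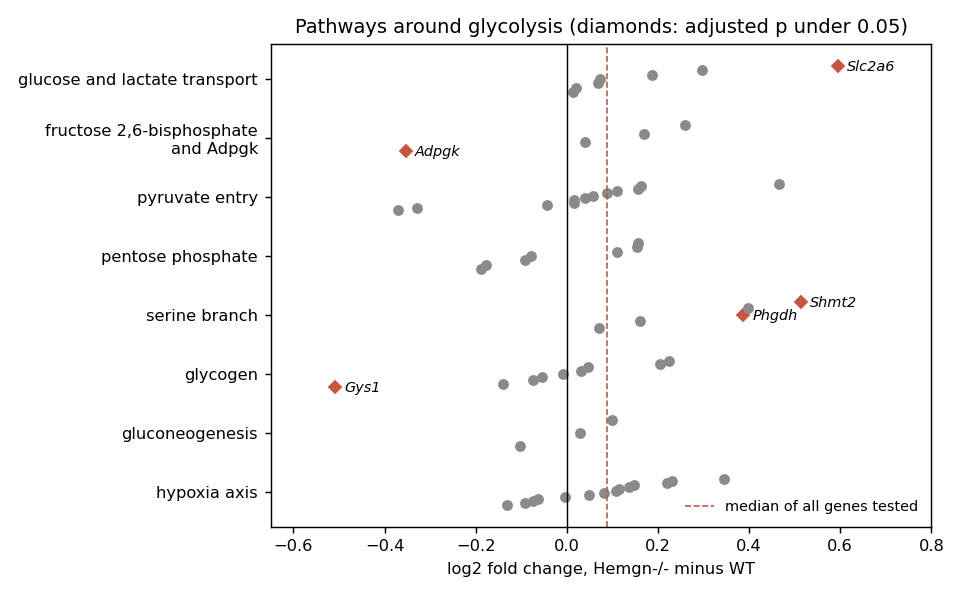
Log2 fold changes (Hemgn-/- minus WT) of the 61 tested genes of 8 pathways around glycolysis, 1 point a gene, with red diamonds and names for an adjusted p under 0.05 and a dashed line at the median of all genes tested (0.09). The 5 named genes lie in 4 of the 8 lists, and the points of the other 4 lists are all grey.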

How the data were processed

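RNA of sorted donor cells was sequenced in 3 WT and 3 Hemgn-/- libraries, grouped by the genotype label. The authors deposited FPKM values per gene. The submitters' processing notes name GRCm38, Bowtie2 2.2.3, HISAT2 2.1.0, TopHat2 and HTSeq 0.6.0, whose roles, like the annotation and the use of strand, are not given in the sources used here. No column was left unmapped (0 columns).

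Of 24965 gene identifiers, 24921 matched GENCODE M21, which gave symbols, positions and exon lengths, and 44 did not. With these lengths, 95.7% of 13482 low genes (up to 100 fragments) gave whole fragments in all 6 libraries within 0.05, which gave the depth. The 13739 genes that exceeded an FPKM of 1 in any library were compared on log2(FPKM + 1), which understates changes of low genes, with limma 3.58.1 in R 4.3.3 (lmFit, eBayes with a trend, two-sided, no covariate). Adjustment was by Benjamini-Hochberg over all these genes, and fold changes are Hemgn-/- minus WT. The limma p-values set the difference between groups against the spread between these libraries, which eBayes draws towards the trend over all genes.

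Copies were found with BLAST+ 2.17.0, from coding sequences against annotated transcripts (at least 85% identity over 30% of the coding sequence). Isozyme shares were tested by exact permutation, and 1 gene and the shares of its step, which entered the adjustments, are not reported here. All 10 members, called genes of the pathway lists, Gapdh, Pgam1, Hemgn and copies of members above 1 FPKM were to be named. Members and lists were chosen with earlier results of these data known, and the Gapdh and Pgam1 copies, single marker genes and uncalled isozymes, transporters and serine genes are given beyond the rule. Marker lists served as checks. The HSPC, granulocyte and erythroid results stand beside the genes they bear on. Of the others, genes called higher and lower were 0 and 3 of 7 for eosinophils, basophils and mast cells, 3 and 2 of 9 for macrophages and monocytes, 3 and 0 of 7 for B cells, 2 and 0 of 7 for T and NK cells, 2 and 0 of 6 for plasmacytoid dendritic cells, and 0 and 0 of 4 for endothelium. The fit was tested on simulated data with changes larger than those of the members, so that test does not bear on differences of their size. Alternatives were a pseudocount of 0.1, other filters, other scalings, eBayes without a trend, voom on recovered fragments, a replicate block, sums with copies and leaving out each library.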

Additional observations from a re-analysis of the deposited data

How the results depend on the processing

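Of the 10 members, 0 were called higher and 0 passed the study's 1.5-fold threshold under any alternative, and 2 (Gpi1 and Hk3) were called lower with median-ratio scaling and 1 (Gpi1) with voom, by limma with Benjamini-Hochberg adjustment. Median-ratio scaling called 4 glycolysis genes lower, and in the neighbouring pathways it called 1 gene higher, the same FPKM total called 6 higher, and eBayes without a trend called 0 higher and 0 lower. With each library left out in turn, 0 members and 2 glycolysis genes were called lower, and 1 to 3 neighbouring genes higher and 1 to 2 lower. Hemgn was at -1.37 with an adjusted p of 0.0613 (limma, Benjamini-Hochberg) when all genes above 0 were tested, and at -1.58 to -1.20 with libraries left out. Signs turned for genes that were never called. At the same FPKM total Aldoa was at 0.0739, Pkm at 0.0213, Ldha at 0.0608 and Gm4735 at 0.0450. Median-ratio scaling put Tpi1 at -0.0671 and Pgam1 at -0.0220, quantile normalization put Tpi1 at -0.0341, and the sum with copies put Gapdh at 0.207. With libraries left out Aldoa ran from -0.0736 to 0.0353, Tpi1 from -0.0753 to 0.207, Ldha from -0.0696 to 0.0244, Gm4735 from -0.156 to 0.0514 and Pgam1 from -0.0074 to 0.142. Over all genes, 600 were called higher and 287 lower. These counts were 340 and 386 with median-ratio scaling, 368 and 346 with quantile normalization, 1059 and 238 at the same FPKM total, 309 and 157 with all genes above 0, 237 and 153 without the trend, and 223 to 451 and 150 to 237 with libraries left out, fewest without Hemgn-/- replicate 3. Same-numbered libraries did not deviate together (correlations of -0.043, -0.009 and 0.011). Whether they were transplanted, sorted or prepared together is not given in the sources used here. With the replicate block 410 genes were called higher and 226 lower, and 0 members were called. The cause of these differences was not tested. With 3 libraries a group, exact tests cannot go below 0.1, and the printed intervals are those of the fit on the FPKM values as deposited.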
